A study of Mus musculus with 2 samples.

Results

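The genes described here are 10 enzymes of glycolysis, the route by which a cell turns glucose into pyruvate and lactate. In pathway order they are Hk1, Hk2, Gpi1, Pfkl, Pfkp, Aldoa, Gapdh, Pgk1, Pkm and Ldha, taken by symbol from a table of 54532 genes, and all 10 were found and had a level of at least 1 CPM (counts scaled to a library total of 1000000) in a library. The data are mRNA sequencing of 2 cultures of CMT167R, a derivative of the mouse lung carcinoma line CMT167 that is labelled as resistant to anti-PD1, an antibody against the T cell checkpoint receptor PD-1. One culture was untreated (CON), and the other had received 50 nM of a compound named only PKCi for 24 h, so each group is 1 library of the same resistant cells, both grown with antibiotics in the medium. The labels do not identify the compound. How the resistant cells were derived, and whether they are 1 clone, is not given in the sources used here.

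Glycolysis first spends ATP to trap and split glucose (hexokinase, glucose phosphate isomerase, phosphofructokinase and aldolase) and then gains ATP and pyruvate (glyceraldehyde-3-phosphate dehydrogenase, phosphoglycerate kinase, mutase, enolase and pyruvate kinase). Lactate dehydrogenase turns pyruvate into lactate and restores the NAD+ that the dehydrogenase step uses. Tumour cells commonly run this route fast even with oxygen present, and hexokinase, phosphofructokinase and pyruvate kinase are its strongly regulated, effectively one-way steps.

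The libraries held 16090186 (CON) and 16071153 (PKCi) gene counts. As each group has 1 library, differences have no replicate check and carry no p-value, and the 95% intervals of ratios, levels and shares cover counting error only. Keratin genes marked the cells as epithelial (Krt8 at 933 CPM in CON and 1182 CPM in PKCi), while Cdh1 (2.92 and 3.36 CPM) and Epcam (3.48 and 6.28 CPM) were low and the lung markers Nkx2-1 and Sftpc were at 0 counts in both libraries. One protocol in the labels speaks of retinas, and 7 of 10 retina markers were at 0 in both libraries, with a sum of 0.249 and 0.373 CPM over all 10. Of 12 leukocyte markers 8 were at 0 in both libraries (sums of 10.9 and 7.16 CPM), and of 7 endothelial markers 2 were (0.621 and 1.24 CPM). The 8 fibroblast markers summed to 100.3 CPM in CON and 35.9 CPM in PKCi, of which Pdgfrb gave 88.4 and 24.4 CPM. Without Pdgfrb the other 7 summed to 11.9 and 11.5 CPM, with Col1a1 lower (8.89 and 4.36 CPM), Pdgfra higher (2.67 and 6.04 CPM) and Fap and Postn at 0. The part of these markers in the results below was not tested. In bulk RNA, fewer cells of a type and less RNA per cell cannot be told apart.

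The 10 glycolytic enzyme genes were close to each other in the 2 libraries as a group, with none at least 2-fold apart. Hk1 had the highest ratio, at 1.43-fold higher in PKCi, and Gapdh the lowest, at 1.61-fold lower. On the log2(CPM + 1) scale 0 of the 10 were higher by 2-fold or more and 0 were lower by that much. Of all 12273 genes that reached 1 CPM in a library, 6.53% were higher and 5.13% lower by that size, or 11.7% in either direction. Among the 5218 genes that reached 50 CPM in a library, a level that all 10 exceeded, 11.1% were at least 2-fold apart (5.77% higher and 5.29% lower). At these shares a list of 10 genes with none called lies near the background. The log2 ratio of PKCi over CON was above 0 for 5 members (Hk1, Gpi1, Pfkp, Aldoa and Pgk1) and below 0 for 5 (Hk2, Pfkl, Gapdh, Pkm and Ldha), and 50.8% of all measured genes and 54.8% of those with at least 50 CPM were below 0. The members' median log2 ratio was 0.03, beside −0.01 for all measured genes. Their median absolute log2 ratio was 0.25, beside 0.40 over all measured genes. The members outside the quartiles of all measured genes (−0.41 and 0.39) were Hk1, Aldoa and Gapdh, and the other 7 lay within them.

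**Figure D1:**
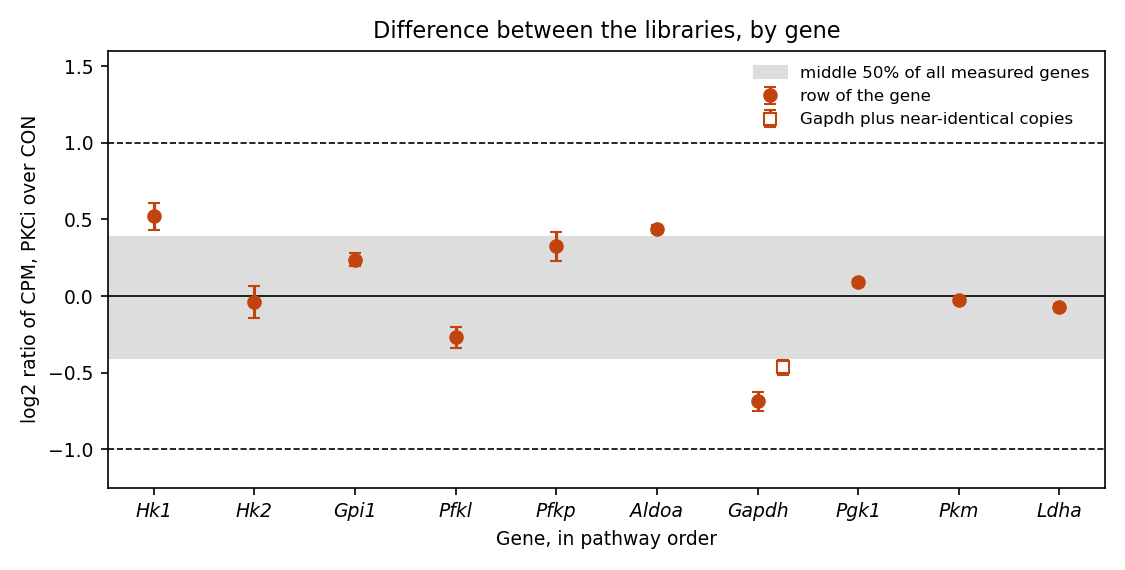
The log2 ratio of CPM, PKCi over CON, is plotted for each gene in pathway order, with bars for the 95% counting interval, a grey band for the quartiles of all 12273 measured genes (−0.41 to 0.39) and dashed lines at 2-fold. Hk1 and Aldoa lie above the band and Gapdh below it, and the open square shows Gapdh after the counts of its near-identical copies were added.

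Together the 10 genes took 1.15% of all counts in CON and 1.19% in PKCi (185566 and 191400 counts). The 6 members from hexokinase to aldolase summed to 2419 CPM in CON and 3019 CPM in PKCi, 1.25-fold higher (95% interval 1.23 to 1.27). Most of that difference lay in Aldoa, and without it the other 5 were at 1088 and 1217 CPM, 1.12-fold higher (95% interval 1.10 to 1.14). The 4 members from Gapdh to lactate summed to 9114 and 8890 CPM, a ratio of 0.975 (95% interval 0.968 to 0.983), and without Gapdh the ratio was 0.989 (95% interval 0.982 to 0.996). This division of the pathway was made with the values known.

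Hexokinases phosphorylate glucose and so hold it in the cell. Hk1, the widely expressed isozyme, was at 110 CPM in CON and 157 CPM in PKCi (1767 and 2530 counts), 1.43-fold higher (95% interval 1.35 to 1.52). Hk2, the isozyme often raised in tumours and bound like Hk1 to the outer mitochondrial membrane, was at 97.2 and 94.6 CPM (1564 and 1521 counts). Its difference was not detectable at this depth, with an interval of the PKCi to CON ratio from 0.907 to 1.05. Hk1 thus took a larger share of hexokinase counts in PKCi, 62.4% (exact binomial 95% interval 60.9 to 63.9) against 53.0% (95% interval 51.3 to 54.7) in CON. Per listed gene length, Hk2 was the more abundant isozyme in CON, with 55.7% of the family, and Hk1 in PKCi, with 53.6%. The order depended on the length used: with the length of the principal transcript in GENCODE M21, Hk1 was ahead of Hk2 in both libraries (28.5 against 17.6 CPM per kb in CON, 40.9 against 17.2 in PKCi). Hkdc1 had 0 and 1 counts and Hk3 0 in both libraries, where 0 counts allow up to 0.186 CPM in CON and 0.187 CPM in PKCi (3 counts of the total). The antisense gene Hk1os, which overlaps Hk1 on the other strand, had 3 and 16 counts.

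Gpi1 encodes glucose phosphate isomerase, which converts glucose 6-phosphate to fructose 6-phosphate. It was at 551 CPM in CON and 650 CPM in PKCi (8865 and 10444 counts), 1.18-fold higher (95% interval 1.15 to 1.21).

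Phosphofructokinase makes fructose 1,6-bisphosphate, the committing step of glycolysis, and its isozyme genes differed in direction. Pfkl, the liver-type subunit, had 3736 counts in CON and 3096 in PKCi (232 and 193 CPM), 1.21-fold lower in PKCi (95% interval 1.15 to 1.26). Pfkp, the platelet-type subunit, was at 97.7 and 122 CPM (1572 and 1965 counts), 1.25-fold higher (95% interval 1.17 to 1.34). Pfkl took 63.5% of phosphofructokinase counts in CON (95% interval 62.3 to 64.8) and 55.6% in PKCi (95% interval 54.3 to 56.9). Pfkp took 26.7% in CON (95% interval 25.6 to 27.9) and 35.3% in PKCi (95% interval 34.0 to 36.6). Pfkm, the muscle-type subunit, made up the rest, with 9.71% and 9.12%, intervals that overlap (8.97 to 10.5 and 8.38 to 9.91). Per listed length Pfkl remained the leading subunit in both libraries, at 66.0% and 60.8%. On that scale Pfkm was ahead of Pfkp in CON (20.2% against 13.8%) and close to it in PKCi (19.9% against 19.2%). Over all 3 genes the step was at 365 and 347 CPM, 1.05-fold lower in PKCi (95% interval 1.02 to 1.09). Pfkp shares 748 bases with Pitrm1 on the opposite strand, a gene with 3067 and 2077 counts (ratio 0.678). Pitrm1 and Pfkp differed in opposite directions between the libraries, and the strand setting of the counting is not given in the sources used here, so reads from the shared bases cannot be told apart.

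**Figure D2:**
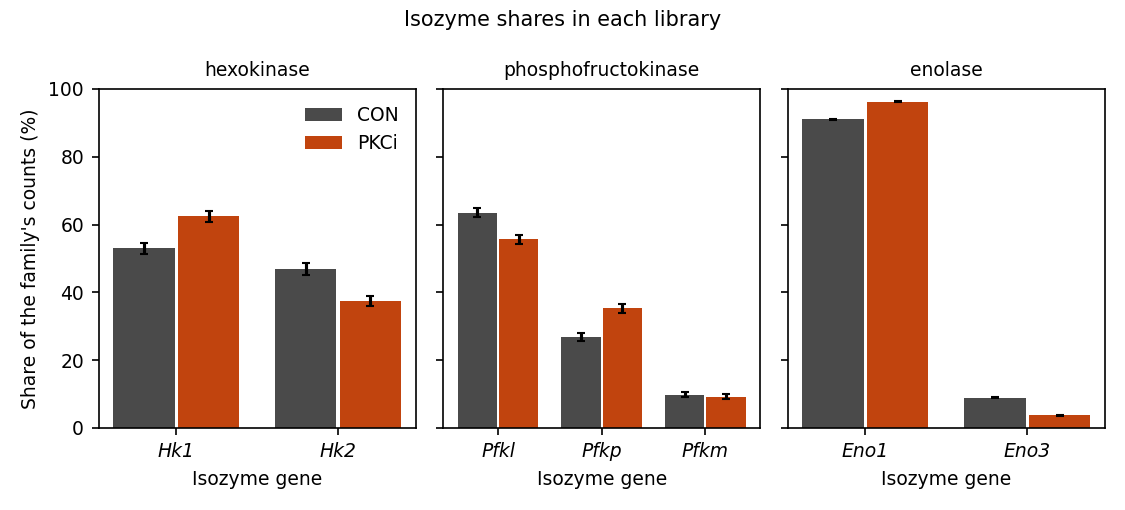
The bars give each isozyme's share of its family's deposited counts, in percent, for CON (dark) and PKCi (orange), with exact binomial 95% intervals that cover counting error only. In CON and PKCi respectively, Hk1 holds 53.0% and 62.4% of hexokinase counts, Pfkp 26.7% and 35.3% of phosphofructokinase counts, and the muscle enolase gene Eno3 8.93% and 3.75% of enolase counts.

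Aldoa encodes the main aldolase, which splits fructose 1,6-bisphosphate. It was at 1331 CPM in CON and 1802 CPM in PKCi (21411 and 28966 counts), 1.35-fold higher (95% interval 1.33 to 1.38), and had the second-highest ratio of the members. Among the aldolase genes Aldoa held 97.7% of counts in CON and 97.2% in PKCi. Aldoc, the brain-type isozyme, was also higher in PKCi (31.8 and 51.6 CPM, 1.62-fold, 95% interval 1.45 to 1.82). A second gene with the symbol Aldoa in the deposited table (ENSMUSG00000114515) had 20 and 19 counts and was not added.

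Gapdh encodes glyceraldehyde-3-phosphate dehydrogenase, the step that reduces NAD+, and its message is widely used as a reference for constant expression. It was at 332 CPM in CON and 206 CPM in PKCi (5341 and 3314 counts), 1.61-fold lower (95% interval 1.54 to 1.68), and 13.2% of all measured genes had a lower log2 ratio. Per listed length its level was 80.3 CPM per kb in CON and 49.9 in PKCi, ranks 617 and 970 among the measured genes. The next enzyme of the pathway, Pgk1, was at 768 and 818 CPM per kb, ranks 33 and 29. Gapdh is known for its many processed pseudogenes, copies of its message inserted elsewhere in the genome, so its copies were counted from the annotated transcripts. At an identity of at least 95% over at least 100 coding bases, 80 other genes of GENCODE M21 matched the Gapdh coding sequence, 76 of them annotated as pseudogenes, and 25 of the 80 reached an identity of at least 99%. Together they covered 100% of its 999 coding bases. A stretch of 60 bases (coding bases 326 to 385, 5′ to 3′) is printed for Gapdh and the 4 copies that held the most counts in CON. Of the stretches scanned, it was chosen as the one where most of these copies differed from Gapdh, then at the fewest bases. Capitals mark bases that differ from Gapdh, of which each line has 0 or 1.
Gapdh: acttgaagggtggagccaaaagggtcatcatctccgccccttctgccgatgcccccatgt
Gm7336: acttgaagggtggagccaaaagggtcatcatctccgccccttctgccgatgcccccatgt
Gm5559: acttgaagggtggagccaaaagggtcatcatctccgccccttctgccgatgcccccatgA
Gm12070: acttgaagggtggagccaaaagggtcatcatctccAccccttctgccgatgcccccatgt
Gm13394: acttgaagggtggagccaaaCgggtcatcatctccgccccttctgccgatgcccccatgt

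The Gm7336 stretch equals that of Gapdh over all 60 bases, and each of the other copies differs at 1. In the deposited table the 80 copies held 2922 counts in CON and 2670 in PKCi, led by Gm7336 with 1396 and 1280, Gm5559 with 421 and 421, Gm12070 with 346 and 327 and Gm13394 with 122 and 112. Relative to the library totals the copies were at a PKCi to CON ratio of 0.915 (95% interval 0.868 to 0.964), and the Gapdh row itself at 0.621. Of the counts at Gapdh and its copies together, 35.4% in CON and 44.6% in PKCi stood at the copies. With the copies added, Gapdh came to 514 CPM in CON and 372 CPM in PKCi, 1.38-fold lower (95% interval 1.33 to 1.43). How the counting treated reads that fit several genes is not given in the sources used here, and the part of shared reads in Gapdh's low level and in its difference was not tested. The testis enzyme gene Gapdhs had 5 and 9 counts.

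**Figure D3:**
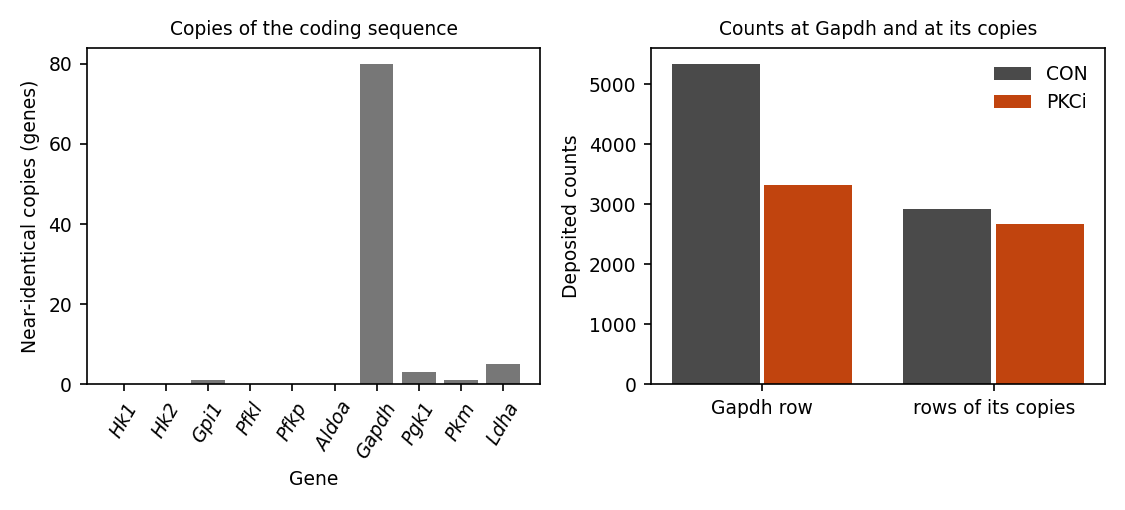
The left panel gives, for each enzyme gene, the number of other genes whose transcripts matched at least 100 coding bases at 95% identity or more, and the right panel the deposited counts at the Gapdh row and at the rows of its 80 copies. Gapdh has 80 such copies and no other member more than 5, and the difference between CON and PKCi is 5341 against 3314 counts at the Gapdh row and 2922 against 2670 at the copies.

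The other members had few copies with few counts. Ldha had 5 copies with 19 and 22 counts, Pgk1 3 with 142 and 152 counts, Pkm 1 (Gm6560) with 880 and 763 counts and Gpi1 1 with 30 and 29 counts. None was found for Hk1, Hk2, Pfkl, Pfkp and Aldoa at this identity, where the second gene with the symbol Aldoa was left out of the count. The counts at copies were at most 1.26% of those of member and copies together for each member other than Gapdh. Counts at a copy do not measure the reads that fit both it and the member. The copies covered 100% of the coding bases of Pgk1, Pkm and Ldha and 86.3% of those of Gpi1. For Pgk1, 2 copies reached an identity of at least 99%, of which Gm5537, at 100%, had 0 counts. The part of shared reads in the levels of these members was not tested.

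Pgk1 encodes phosphoglycerate kinase, the first step that yields ATP. It was at 1723 CPM in CON and 1835 CPM in PKCi (27725 and 29484 counts), 1.06-fold higher (95% interval 1.05 to 1.08), and the testis gene Pgk2 had 0 counts in both libraries.

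Pkm encodes the pyruvate kinase of tumours and most tissues, whose alternative exons give the M1 and M2 forms, which counts per gene do not separate. It was at 4270 and 4199 CPM (68707 and 67485 counts), a ratio of 0.983 (95% interval 0.973 to 0.994). Pklr, the pyruvate kinase of liver and red cells, had 0 counts in both libraries. The gene AC160637.1, of the annotation class TEC, a locus whose coding status is unsettled, lies inside Pkm on the same strand and covers 767 of its 5001 exonic bases, 15.3%. It had 959 counts in CON and 1540 in PKCi, 1.61-fold higher (95% interval 1.48 to 1.74), while Pkm itself differed by less than 2%. Reads from bases that both genes hold cannot be told apart. The part of Pkm reads in the counts of AC160637.1 was not tested.

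Ldha encodes the lactate dehydrogenase subunit that favours lactate formation. It was at 2789 CPM in CON and 2650 CPM in PKCi (44878 and 42595 counts), 1.05-fold lower (95% interval 1.04 to 1.07). Ldhb, the subunit that favours pyruvate formation, had 0 and 1 counts, and the testis gene Ldhc 2 and 0, so Ldha held 44878 of the 44880 lactate dehydrogenase counts in CON and 42595 of 42596 in PKCi.

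**Figure D4:**
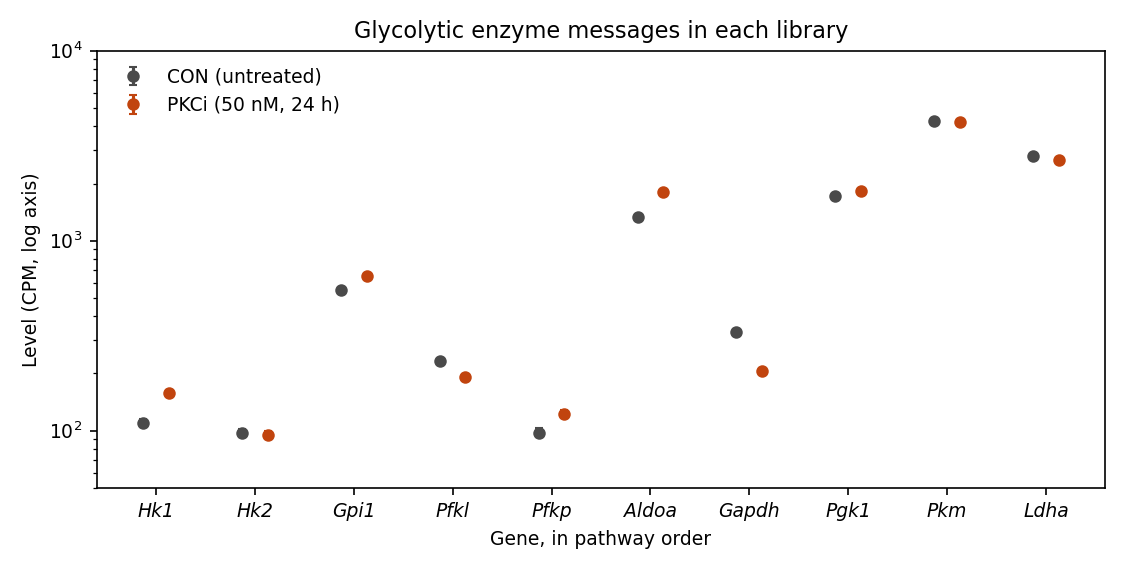
The level of each gene in CPM (log axis) is plotted in pathway order for CON (dark) and PKCi (orange), with 95% counting intervals that mostly fall within the symbols. Levels run from 97.2 CPM (Hk2) to 4270 CPM (Pkm) in CON, and the gap between the libraries is widest for Gapdh and Hk1.

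Ordered per listed gene length in CON, the members were Pkm (854 CPM per kb), Ldha (843), Pgk1 (768), Aldoa (457), Gpi1 (85.4), Gapdh (80.3), Pfkl (34.8), Hk2 (16.3), Hk1 (12.9) and Pfkp (7.29). Only Pkm and Ldha, among neighbours in that order, had counting intervals that overlapped. In PKCi the order had Pgk1 (818) before Ldha (801), the only neighbours whose intervals overlapped there, and Hk1 (18.5) before Hk2 (15.9). The first 4 enzymes stood among the most abundant messages of the cells, at ranks 29, 30, 33 and 71 of the measured genes per length in CON and 26, 32, 29 and 45 in PKCi. The listed lengths are as the table gives them, and each is longer than the principal transcript (4133 against 1420 bases for Gapdh, 13401 against 4145 for Pfkp). The length used changed parts of the order. Per kb of the principal transcript, Gapdh stood before Gpi1 in CON (234 and 191 CPM per kb) and after it in PKCi (145 and 225). On that scale Ldha stood before Pgk1 in both libraries, Aldoa before Pgk1 in PKCi (1193 and 1005 CPM per kb), and Hk2 was last in both (17.6 in CON and 17.2 in PKCi), after Pfkp (23.6 and 29.5).

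Many glycolytic genes are known targets of the hypoxia-inducible factor HIF-1, which binds sites with the core ACGTG or GCGTG, and of MYC, which binds the E-box CACGTG, a palindrome that contains ACGTG on each strand. In the 250 bases before their RefSeq start sites (GRCm38.p6, 15 windows for the 10 members, 4 of which have several starts), 5 members held ACGTG on either strand (Hk2, Aldoa, Pgk1, Pkm and Ldha), beside 18.5% of all 27025 genes with a window. With GCGTG counted too, 9 of 10 members held a match, all but Gpi1, beside 41.5% of genes. CACGTG was found in Ldha alone, beside 6.86% of genes. These matches are descriptions of the letters, and genes differ in their number of windows. The 2 windows printed here are those of Ldha, which held the most ACGTG matches of any window of the members, and of Pgk1. They are given on the gene's strand, 5′ to 3′ towards the start site, with ACGTG or its reverse complement CACGT in capitals, at chr7:46845554-46845803 (plus strand) and chrX:106186850-106187099 (plus strand).
Ldha: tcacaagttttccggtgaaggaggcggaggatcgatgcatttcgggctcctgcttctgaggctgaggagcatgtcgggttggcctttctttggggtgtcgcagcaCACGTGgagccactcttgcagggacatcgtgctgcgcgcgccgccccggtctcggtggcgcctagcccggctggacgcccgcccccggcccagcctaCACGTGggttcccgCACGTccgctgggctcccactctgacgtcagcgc
Pgk1: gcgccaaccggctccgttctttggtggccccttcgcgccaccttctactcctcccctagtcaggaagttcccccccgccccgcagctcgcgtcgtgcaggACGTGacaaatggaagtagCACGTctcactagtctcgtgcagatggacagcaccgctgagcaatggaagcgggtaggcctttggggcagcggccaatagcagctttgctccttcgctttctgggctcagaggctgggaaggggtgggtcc

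The Ldha window holds 5 matches, beginning 145, 144, 48, 47 and 34 bases before the start, where each CACGTG counts on both strands. The Pgk1 window holds 2, at 150 and 131 bases. In the same libraries Hif1a, the oxygen-regulated subunit of HIF-1, was at 392 CPM in CON and 401 CPM in PKCi (1.02-fold, 95% interval 0.988 to 1.06), and Myc at 101 and 128 CPM (1.27-fold higher, 95% interval 1.19 to 1.35). Ldha and Pgk1 themselves were 1.05-fold lower and 1.06-fold higher.

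On the GRCm38 coordinates of the deposited table, Hk1 (ENSMUSG00000037012) spans chromosome 10 from 62268855 to 62379908 and Pfkl (ENSMUSG00000020277) the same chromosome from 77986947 to 78010083, both on the minus strand. Hk2 (ENSMUSG00000000628) lies on chromosome 6 from 82725025 to 82774454 and Gapdh (ENSMUSG00000057666) on chromosome 6 from 125161715 to 125166467, both on the minus strand. Chromosome 7 holds Gpi1 (ENSMUSG00000036427, 34201330 to 34230336, minus), Ldha (ENSMUSG00000063229, 46841475 to 46855627, plus) and Aldoa (ENSMUSG00000030695, 126795234 to 126800751, minus). Pfkp (ENSMUSG00000021196) lies on chromosome 13 from 6579768 to 6648777 on the minus strand, Pkm (ENSMUSG00000032294) on chromosome 9 from 59656368 to 59679375 on the plus strand and Pgk1 (ENSMUSG00000062070) on chromosome X (106187100 to 106203699, plus).

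Tpi1, Pgam1 and Eno1, the main genes of the remaining steps, were slightly lower in PKCi, and the muscle isozymes of 2 of these steps differed in opposite directions. Of 19 other glycolytic genes 9 were measured, with 1 higher and 1 lower by 2-fold or more, beside 6.53% and 5.13% of all measured genes. Their median log2 ratio was −0.21, beside −0.01 over all measured genes. Triosephosphate isomerase (Tpi1) was at 1162 and 1002 CPM, the mutase gene Pgam1 at 723 and 627 CPM and the main enolase gene Eno1 at 4039 and 3619 CPM, each 1.12- to 1.16-fold lower. Eno3, the muscle enolase, was 2.81-fold lower in PKCi (396 and 141 CPM, 95% interval 2.68 to 2.95). Its share of enolase counts was 8.93% in CON and 3.75% in PKCi, and per listed length 23.3% and 10.7%. Pgam2, the muscle mutase, was 3.30-fold higher, from few counts (27 and 89, 95% interval 2.12 to 5.28). Bpgm, which makes 2,3-bisphosphoglycerate, was 1.53-fold lower, and the ADP-dependent sugar kinase gene Adpgk 1.36-fold lower. Eno2, the neuronal enolase, had 2 and 0 counts.

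Of 4 measured genes of glucose and lactate transport, 1 was at least 2-fold lower and 0 were higher by that size. Of 11 measured upstream regulators, 1 was at least 2-fold higher and 0 were lower by that size. Among all measured genes 6.53% were higher and 5.13% lower by 2-fold or more. The genes named from these lists include those with the largest ratios. Slc2a1, the glucose transporter GLUT1, was at 161 CPM in CON and 287 CPM in PKCi (1.78-fold higher, 95% interval 1.70 to 1.87), and Slc16a1, the lactate transporter MCT1, at 686 and 274 CPM (2.50-fold lower, 95% interval 2.41 to 2.59). Their relatives were near 0, Slc2a3 with 0 and 1 counts and Slc16a3 with 10 and 10, while Bsg, the chaperone subunit of MCT1, was at 518 and 512 CPM and Slc2a8 at 9.88 and 10.3 CPM. Txnip, which lowers glucose uptake and is induced by glucose metabolites, was 12.1-fold higher in PKCi (64 and 776 counts, 3.98 and 48.3 CPM, 95% interval 9.40 to 15.9). Of the 5 genes of fructose 2,6-bisphosphate control, which acts on phosphofructokinase, 0 were 2-fold apart, beside 11.7% of all measured genes. Their log2 ratios ran from −0.16 (Pfkfb2) to 0.22 (Pfkfb1). Pfkfb4 was at 31.0 and 28.7 CPM and Tigar at 29.1 and 27.5 CPM. Among the other upstream regulators Mlx, a partner of glucose-sensing factors, was 1.75-fold lower, the HIF hydroxylase gene Egln3 1.53-fold higher and Vhl 1.33-fold higher.

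**Figure D5:**
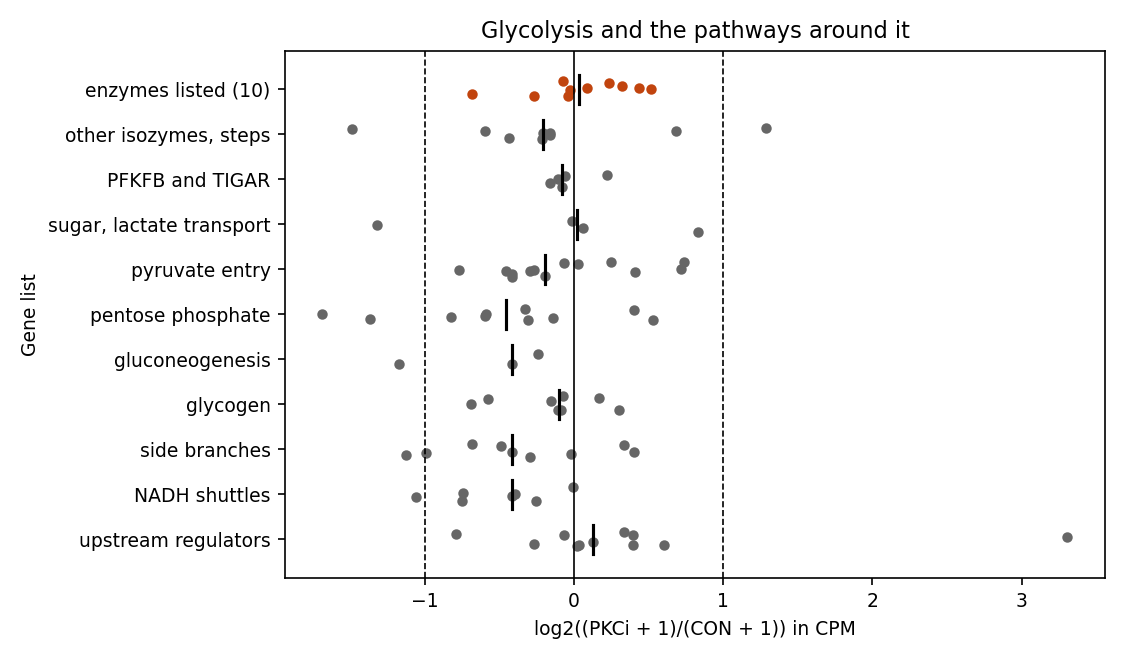
Each point is the log2((PKCi + 1)/(CON + 1)) ratio in CPM of 1 measured gene, by gene list, with the 10 enzymes in orange, black bars at list medians and dashed lines at 2-fold. The 10 enzymes lie between −0.68 and 0.52. Single genes of most other lists lie beyond 2-fold, as do 11.7% of all measured genes, and Txnip at 3.31 lies farthest from 0.

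Among the branches that leave glycolysis, the pentose phosphate list held, besides enzymes of that route, the phosphoribosyl pyrophosphate synthetase genes Prps1 and Prps2. Of its 10 genes 2 were lower by 2-fold or more and 0 higher by that size, beside 5.13% and 6.53% of all measured genes. Their median log2 ratio was −0.46, beside −0.01. Rpia, ribose 5-phosphate isomerase, was 3.35-fold lower (55.1 and 16.4 CPM), Prps1 2.62-fold and Prps2 1.78-fold lower, and H6pd 1.52-fold lower. Of the 10, 2 were above 0, named after their values were seen. Pgd was 1.45-fold higher (354 and 512 CPM) and Pgls 1.32-fold higher (101 and 133 CPM). Both encode enzymes of the oxidative arm, as do H6pd and G6pdx, so the genes of that arm differed in direction. G6pdx, also named after its value was seen, was 1.24-fold lower (155 and 125 CPM). Of 9 measured genes of serine synthesis, hexosamine, glycerol phosphate and malic enzyme branches, 1 was at least 2-fold lower (Psat1, 603 and 276 CPM). A decrease of that size was found in 5.13% of all measured genes. Phgdh was at 1249 and 629 CPM, Me2 at 96.8 and 59.9 CPM and Psph at 68.4 and 48.4 CPM. All 7 genes of the malate-aspartate shuttle, which carries the electrons of NADH into mitochondria, had log2 ratios below 0. So did 50.8% of all measured genes and 54.8% of those with at least 50 CPM. Slc25a12 was 2.12-fold, Slc25a13 1.70-fold, Got1 1.69-fold and Got2 1.34-fold lower. For Slc25a11, also named after its value was seen, the libraries were at 107 and 107 CPM, within counting error. Of the 13 measured genes of pyruvate entry into mitochondria 0 were 2-fold apart, beside 11.7% of all measured genes. Pdk3 was 1.74-fold and Pdhx 1.39-fold lower, and Pdk2 1.83-fold and Pdp1 1.70-fold higher. Of 8 measured glycogen genes 0 were 2-fold apart, beside the same 11.7%. Gbe1 was 1.63-fold and Pgm1 1.51-fold lower, and Gys1 1.23-fold and Pgm2 1.12-fold higher. By the symbols of the deposited table, Pgm1 here is the gene on chromosome 5 and Pgm2 that on chromosome 4. Of the 3 measured gluconeogenesis genes Pcx, pyruvate carboxylase, was 2.42-fold lower, G6pc3 1.35-fold and Pck2 1.19-fold lower, while Fbp1, Pck1 and G6pc had 0 counts in both libraries.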

How the data were processed

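The authors deposited 1 table of whole-number counts per gene for the 2 libraries, with symbols, positions and lengths, although its name speaks of FPKM. HISAT2 2.0.5 with builds GRCm38 and mm10 is named, per the submitters' processing notes. How reads were counted, with or without strand, is not given in the sources used here. Of the protocols in the labels, one has a stranded TruSeq mRNA kit and the other a TruSeq kit without strand, for retinas. Counts were scaled to 1000000 per library (CPM), where 1 CPM stood for 16.1 counts, and the log2 ratio used a pseudocount of 1 CPM; folds are plain ratios of CPM. Genes that reached 1 CPM in a library were called measured, and 2-fold on the log2 scale was the size counted. Ratios have exact conditional binomial and shares exact (Clopper-Pearson) 95% intervals, computed with scipy 1.17.1. The labels name no molecular identifiers, and reads without them are not separate molecules. Symbols at several genes were read at the row with the most counts.

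Copies were found with blastn (BLAST 2.17.0) of the principal transcript of each member against GENCODE M21 transcripts. Genes that overlap the member and the second gene with the symbol Aldoa were left out. Start sites are from RefSeq. The procedure was tested on simulated libraries. The alternatives were TMM (edgeR 4.0.16), size factors (DESeq2 1.42.0), TPM, other totals, pseudocounts and filters, and pseudogene rows added. The members and lists were chosen with earlier results of these data known. Named genes are all members, the measured other isozymes and up to 4 genes of each further list with the largest absolute log2 ratio, plus Slc2a1, Slc2a3, Slc16a1, Slc16a3, Hif1a and Myc. Genes under 1 CPM, the genes that overlap a member, copies of Gapdh and marker genes were named besides. Some listed isozyme genes are not reported here.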

Additional observations from a re-analysis of the deposited data

How the results depend on the processing

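Under TMM factors, median-of-ratios size factors, TPM from the listed lengths, a total without mitochondrially encoded genes and pseudocounts of 0.1 and 5 CPM, 0 members were at least 2-fold higher or lower and 5 had log2 ratios below 0, as in the report. Adding pseudogene rows, named or found by identity, left these counts the same. The copies found by identity, the use of pseudogene rows for these counts, the 50 CPM filter and the transcript lengths were chosen after seeing the data. Of 60 recomputed member ratios 0 crossed 1 and 1 left its counting interval, that of Gapdh with its copies added (0.725 against 0.621). The share of all genes at least 2-fold lower was 3.01% with no filter on low values. With a pseudocount of 5 CPM, 2.64% were lower and 3.66% higher, and with TPM 9.86% were higher. No paired analysis was possible because each group has 1 library. Leaving out a replicate was not possible for the same reason. Depth limits Hk2, whose difference was within counting error, and the isozymes with fewer than 10 counts.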
